A study of Mus musculus with 12 samples.

Results

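The genes described here are 10 genes at the intracellular end of the Wnt/beta-catenin pathway, measured by RNA-seq in inguinal white adipose tissue (iWAT) of mice. They are Axin1, Axin2, Nkd1, Nkd2 and Sp5, Ctnnb1, and Tcf7, Tcf7l1, Tcf7l2 and Lef1. They were chosen by name, with earlier results of these mice known, as feedback genes of beta-catenin with their close relatives (Axin1 and Nkd2), the gene of beta-catenin itself and the 4 TCF/LEF transcription factors. All 10 were found among 54134 genes in the table of reads, and 9 passed the filter on low counts that left 15585 genes for testing. Male C57BL/6J mice received at 8 weeks of age, through the tail vein, an AAV8 that makes either GFP (AAV-GFP, n = 6) or mouse Notum (AAV-Notum, n = 6). The liver-specific thyroxine-binding globulin promoter drives both transgenes, so Notum made from the virus would reach iWAT through the circulation. The study reports no NOTUM protein level in plasma or iWAT of these chow-fed mice. All mice ate chow for 4 weeks and were fasted for 4 h before iWAT was taken. Each mouse gave a library of its own, and no mice without virus were analysed here.

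Wnt proteins carry a lipid that they need to bind their receptors, and NOTUM is a secreted enzyme that removes it. When Wnt signals, beta-catenin escapes the destruction complex built on Axin, enters the nucleus and switches on genes bound by TCF/LEF factors. Some of those genes act back on the pathway. Axin2, Nkd1 and Sp5 are among the targets used most widely to read the pathway, and Axin2 and Nkd1 dampen the signal that induces them. In adipose tissue the pathway is known for holding precursors back from becoming adipocytes. Tcf7 and Lef1 have another well-known site of expression, since both are abundant in T cells.

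The total number of reads per mouse was 15266635 to 21618860 among AAV-GFP mice and 14711113 to 17838229 in AAV-Notum. Adipocyte markers (Adipoq, Plin1, Cidec, Pparg, Fabp4 and Lep) summed to at least 17600 CPM (reads scaled to the TMM-normalised size of the library) in every mouse. Lymphoid markers separated the mice of AAV-GFP. The sum of 18 T cell markers was 17.7, 54.6 and 10.4 CPM in AAV-GFP mice S_2011, S_2012 and S_2014, against 945, 635 and 1140 CPM in mice S_2013, S_2021 and S_2022. The sum was 319 to 1365 CPM in AAV-Notum. In mice S_2011 and S_2014 the 8 B cell markers held 90 and 64 reads together, whereas the other mice held at least 5236. Mouse S_2012, whose RNA was isolated on another day than that of the other 11 mice, was low in T cell markers but had 312 CPM of B cell markers. Inguinal fat can hold the lymph node, and the labels used here do not say whether a sample did. The part of the node in the lymphoid markers was not tested. Fewer lymphoid cells and less RNA per cell cannot be told apart in bulk tissue. For the 10 genes, results that rest on these mice are given also without them or with the T cell marker level as a covariate. RNA integrity numbers were 5.7 to 7.6 for the AAV-GFP mice and 6.9 to 7.4 for the AAV-Notum mice.

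TCF/LEF factors bind DNA through a core written CTTTGA, so the promoters of the 10 genes were searched for these letters on both strands. RefSeq start-site windows of GRCm38.p6, from 250 bases before to 50 bases after the start, matched 9 of the 10 genes with 15 windows. The core was found in 2 of the 15 windows, 1 of Sp5 and 1 of Lef1. Of all 32817 windows of this length in the table, 16.0% hold CTTTGA or its reverse complement TCAAAG. The 250 bases before the start are printed for these 2 genes, and for Axin2 and Nkd1, the feedback genes with enough reads to test on which the comparison turns. Each is 5′ to 3′ on the gene's own strand, with the core in capitals. The Sp5 stretch (chr2:70474673-70474922, + strand) has cores that begin 204 and 104 bases before the start. The Lef1 stretch (chr3:131156044-131156293, + strand) lies inside the gene, before its most downstream RefSeq start, and has cores that begin 180 and 120 bases before it. The other 3 Lef1 windows, 2 of which lie at the start of the gene, hold none. No CTTTGA core is in the windows of Axin2 (chr11:108920099-108920348, + strand) or Nkd1 (chr8:88527383-88527632, + strand), which says only that these letters are not in these windows. The Nkd1 stretch lies inside the gene as GENCODE annotates it, which starts at 88521354, and not before that start.
Sp5: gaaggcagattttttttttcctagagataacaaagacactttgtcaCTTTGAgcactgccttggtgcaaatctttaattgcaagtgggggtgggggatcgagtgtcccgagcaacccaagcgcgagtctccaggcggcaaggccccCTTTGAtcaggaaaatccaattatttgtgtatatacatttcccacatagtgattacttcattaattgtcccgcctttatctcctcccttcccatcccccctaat
Lef1: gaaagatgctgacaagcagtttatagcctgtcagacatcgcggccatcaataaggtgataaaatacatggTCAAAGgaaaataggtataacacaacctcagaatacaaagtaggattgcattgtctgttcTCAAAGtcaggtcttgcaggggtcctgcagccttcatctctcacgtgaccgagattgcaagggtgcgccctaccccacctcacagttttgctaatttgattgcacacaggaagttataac
Axin2: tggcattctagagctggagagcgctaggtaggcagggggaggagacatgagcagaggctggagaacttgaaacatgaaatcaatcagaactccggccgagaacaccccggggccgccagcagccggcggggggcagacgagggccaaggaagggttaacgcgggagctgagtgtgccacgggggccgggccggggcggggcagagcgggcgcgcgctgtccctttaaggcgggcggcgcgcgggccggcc
Nkd1: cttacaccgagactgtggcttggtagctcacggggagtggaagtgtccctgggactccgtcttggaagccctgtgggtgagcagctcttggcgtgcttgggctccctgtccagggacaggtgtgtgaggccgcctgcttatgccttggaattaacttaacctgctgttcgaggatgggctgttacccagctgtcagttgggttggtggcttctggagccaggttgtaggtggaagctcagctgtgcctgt

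The levels of the 10 genes covered a wide range. Per kilobase of exon, Ctnnb1 was the highest of them in AAV-GFP, at 64.5 ± 6.16 CPM per kilobase (SD, n = 6). In AAV-GFP it was followed by Tcf7 (26.2 ± 29.3), Axin1 (12.5 ± 2.02), Tcf7l1 (9.17 ± 1.96) and Tcf7l2 (5.84 ± 1.65). Below these came Axin2 (2.87 ± 0.222), Lef1 (2.59 ± 2.81), Nkd1 (1.60 ± 0.637), Nkd2 (0.356 ± 0.153) and Sp5 (0.0169). Within AAV-GFP mice, Tcf7l1 was above Tcf7l2, Tcf7l2 above Axin2, and Nkd1 above Nkd2 in 6 of 6. The places of Tcf7 and Lef1 in this order were not fixed, since Tcf7 exceeded Axin1, and Lef1 exceeded Nkd1, in 3 of 6. In AAV-Notum the order per kilobase was the same except that Lef1 (5.29 ± 2.38) stood before Tcf7l2 (4.64 ± 1.02) and Axin2 (2.76 ± 0.318), with Lef1 higher than Tcf7l2 in 3 of 6 mice. Tcf7 exceeded Axin1 in 6 of 6 AAV-Notum mice, and Ctnnb1 exceeded Tcf7 in 3 of 6.

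**Figure D1:**
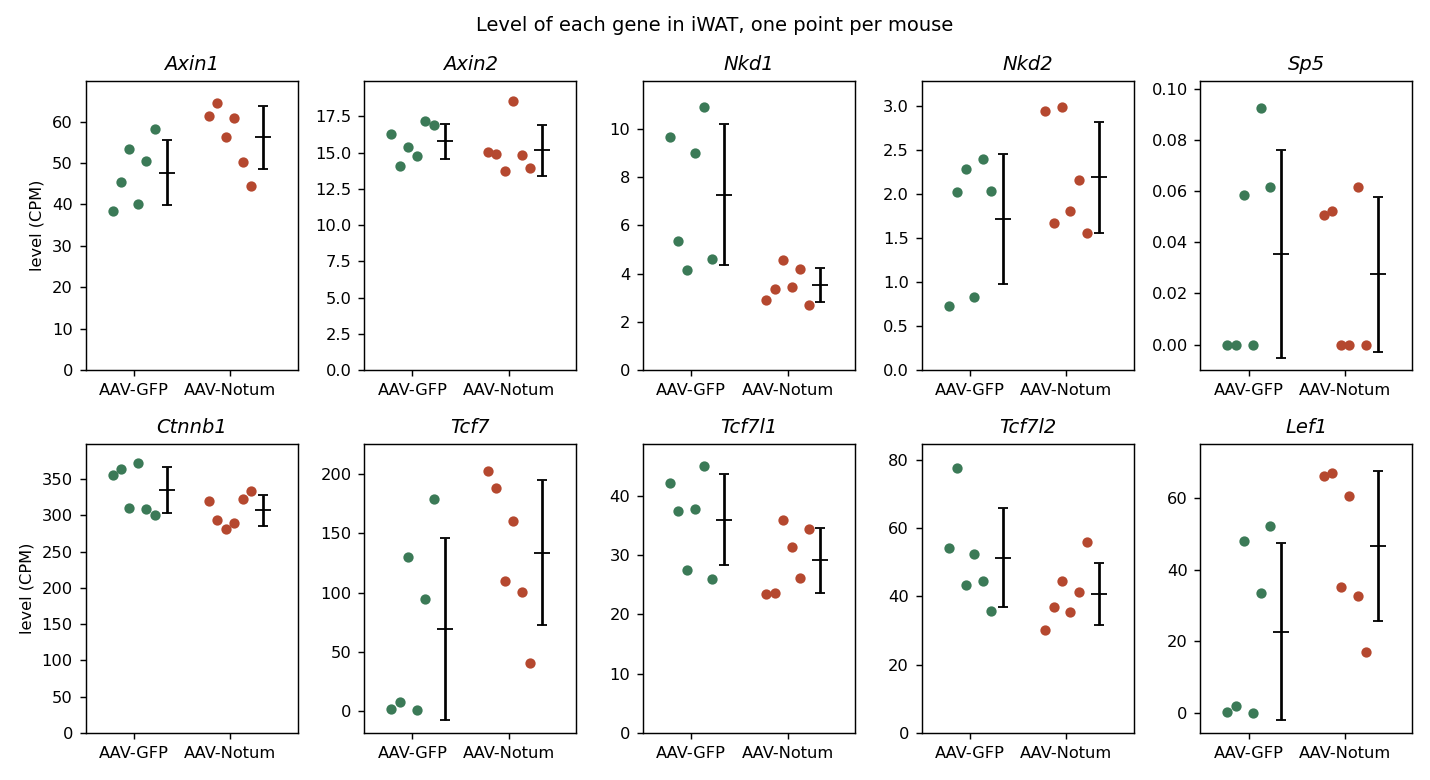
Level in CPM (vertical axis, linear) of the 10 genes in iWAT, with 1 point per mouse (n = 6 per group) and the mean ± SD in black. Nkd1 is between 2.72 and 4.57 CPM in AAV-Notum and between 4.16 and 10.9 CPM in AAV-GFP, and Tcf7 and Lef1 have 3 AAV-GFP mice near 0.

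The genes also differed in how far mice of the same group lay apart. In AAV-GFP the coefficient of variation of CPM was 7.74% for Axin2 and 9.54% for Ctnnb1, below the median of 21.3% over all genes tested. It was 16.3% for Axin1, 21.4% for Tcf7l1, 28.3% for Tcf7l2, 39.9% for Nkd1 and 43.1% for Nkd2. For Tcf7 and Lef1 it was 112% and 109%, at or above that of at least 97.7% of genes. In AAV-Notum it was 45.8% for Tcf7, 45.0% for Lef1, 29.04% for Nkd2, 22.02% for Tcf7l2, 20.5% for Nkd1, 18.8% for Tcf7l1, 13.6% for Axin1, 11.5% for Axin2 and 6.98% for Ctnnb1, with a median of 18.7% over all genes.

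Across the 9 genes tested, none had an adjusted p under 0.05 in edgeR's quasi-likelihood test (Benjamini-Hochberg over 15585 genes), a test that called 0.0513% of all genes lower and 0% higher in AAV-Notum. At an unadjusted p under 0.05, 1 of the 9 genes was lower, Nkd1, and none was higher, beside 9.54% of all genes lower and 4.64% higher. The count of 1 of 9 is thus close to the share of all genes. DESeq2 gave 1 of the 9 genes an adjusted p under 0.05, again Nkd1, where it called 2.17% of all genes lower and 0.481% higher. With limma-voom no gene of the 9 passed the adjusted threshold. At an unadjusted p under 0.05 it gave 1 of the 9 as lower (Nkd1) and 2 as higher (Tcf7 and Lef1), beside 8.52% of all genes lower and 9.38% higher. On the deposited log2 table limma gave 1 as lower (Nkd1) and 1 as higher (Lef1), beside 8.34% and 7.38% of all genes. None of the 9 genes had groups that did not overlap, where 0.693% of all genes had every AAV-Notum mouse below every AAV-GFP mouse and 0.398% the opposite. Over the 9 genes the log2 fold changes had a median of -0.06, and over all genes 0.0077.

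Axin2 encodes a scaffold of the destruction complex and is itself a beta-catenin target. Its gene (ENSMUSG00000000142) lies on chromosome 11 from 108920349 to 108950783. Axin2 had 16.3, 14.1, 15.4, 14.8, 17.2 and 16.9 CPM in AAV-GFP mice S_2011, S_2012, S_2013, S_2014, S_2021 and S_2022. In AAV-Notum mice S_2031, S_2032, S_2033, S_2034, S_2041 and S_2042 it had 15.04, 14.9, 13.7, 18.6, 14.8 and 13.9 CPM. The ranges overlapped almost fully, and the highest mouse of all was an AAV-Notum mouse, S_2034. The mean was 15.8 ± 1.22 CPM (SD, n = 6) with GFP and 15.2 ± 1.75 CPM (SD, n = 6) with Notum. This made a log2 fold change of -0.06 (SE 0.09, 95% interval -0.25 to 0.14, adjusted p = 0.734 in edgeR; two-sided exact permutation p = 0.448). Axin2 had 207 to 372 reads per mouse. Over 25 alternative settings the log2 fold change was -0.12 to -0.029, with no unadjusted p under 0.147. Leaving out mouse S_2034 gave -0.12 (SE 0.08), and leaving out mouse S_2021 gave -0.029.

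Nkd1 (naked cuticle 1) encodes a protein that binds Dishevelled and blocks the signal upstream of the destruction complex. Its gene (ENSMUSG00000031661) lies on chromosome 8 from 88521354 to 88594884. Nkd1 had 9.64, 5.36, 4.16, 8.999, 10.9 and 4.62 CPM in AAV-GFP mice S_2011, S_2012, S_2013, S_2014, S_2021 and S_2022. It had 2.90, 3.35, 4.57, 3.45, 4.18 and 2.72 CPM in AAV-Notum mice S_2031, S_2032, S_2033, S_2034, S_2041 and S_2042. AAV-GFP mice fell into 3 at 8.999 CPM or above and 3 at 5.36 CPM or below, and the AAV-Notum mice reached no higher than 4.57 CPM. Every AAV-Notum level was under the mean of AAV-GFP, and 4 of the 6 were under the lowest AAV-GFP level.

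The mean Nkd1 level was 7.28 ± 2.90 CPM (SD, n = 6) with GFP and 3.53 ± 0.723 CPM (SD, n = 6) with Notum. The log2 fold change was -1.04 (SE 0.26, 95% interval -1.61 to -0.48), with an unadjusted p = 0.00171 and an adjusted p = 0.140 in edgeR's quasi-likelihood test. The two-sided exact permutation p was 0.00649, where 0.00216 is the smallest that 6 mice against 6 allow. In DESeq2 the adjusted p was 0.0137. Nkd1 is a low gene, with 42 to 236 reads per mouse.

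In the full set of mice, the difference in Nkd1 was not carried by a single mouse. With each mouse left out in turn, its log2 fold change was -1.16 to -0.89, with adjusted p of 0.0569 to 0.312 in edgeR. Without AAV-GFP mice S_2011 and S_2014, the log2 fold change was -0.83 (SE 0.29, unadjusted p = 0.0150 and adjusted p = 0.563 in edgeR). Without AAV-GFP mice S_2011, S_2012 and S_2014, an alternative added after the data were seen, it was -0.90 (SE 0.32, unadjusted p = 0.0174 in edgeR). In both of these reduced fits mouse S_2021, at 10.9 CPM, was the only AAV-GFP mouse left above 5.36 CPM. Both therefore lean on that mouse, since S_2013 and S_2022 had 4.16 and 4.62 CPM. With the T cell marker level as a covariate it was -0.83 (SE 0.28, unadjusted p = 0.0123). No marker of another cell type passed the adjusted threshold. Of 5 progenitor markers 2 had a higher and 3 a lower mean in AAV-Notum, and their sum was 290 to 574 CPM against 382 to 536 CPM. Among them Pdgfra, a receptor on adipocyte precursors and stromal cells, had a log2 fold change of -0.49 (unadjusted p = 0.00407, adjusted p = 0.167 in edgeR), while Dpp4 and Ly6a had 0.65 and 0.28. Of 5 endothelial markers 4 had a lower mean, Tie1 and Tek with an unadjusted p under 0.05, and their sum was 552 to 887 CPM against 531 to 687 CPM. All 5 hepatocyte markers had a lower mean, Alb and Serpina1a with an unadjusted p under 0.05, and their sum was 45.1 to 4901 CPM (the highest in mouse S_2013) against 18.8 to 686 CPM. Of 6 adipocyte markers 5 had a lower mean (median log2 fold change -0.27), none with an unadjusted p under 0.05 in edgeR, and their sum was 20520 to 34100 CPM against 17600 to 42050 CPM. All 4 muscle markers had a higher mean, none with an unadjusted p under 0.05 in edgeR, while the median of their sum was lower, at 97.2 CPM (5.30 to 655) in AAV-GFP and 24.0 CPM (4.36 to 3070) in AAV-Notum. With T cell and adipocyte marker levels as covariates, an alternative chosen after the data were seen, the Nkd1 log2 fold change was -0.86 (SE 0.25, unadjusted p = 0.00567 in edgeR). The part of the progenitor, endothelial, hepatocyte and muscle markers in the Nkd1 difference was not tested. Nkd1 is one of the genes that the study picked on these mice, so its direction is not independent evidence.

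Nkd2, a relative of Nkd1 that also binds Dishevelled, was lower in level, and its mean was the higher in AAV-Notum. Its gene (ENSMUSG00000021567) lies on chromosome 13 from 73818534 to 73847631. Nkd2 had 0.729, 2.03, 2.28, 0.834, 2.40 and 2.03 CPM in AAV-GFP mice S_2011, S_2012, S_2013, S_2014, S_2021 and S_2022. It had 2.95, 1.68, 2.98, 1.81, 2.15 and 1.55 CPM in AAV-Notum mice S_2031, S_2032, S_2033, S_2034, S_2041 and S_2042. The 2 mice below 1 CPM were the AAV-GFP mice S_2011 and S_2014, and the other 10 mice overlapped. The mean was 1.72 ± 0.740 CPM (SD, n = 6) against 2.19 ± 0.635 CPM (SD, n = 6). This made a log2 fold change of 0.35 (SE 0.32, 95% interval -0.35 to 1.04, adjusted p = 0.562 in edgeR; exact permutation p = 0.260). It was 0.19 without mouse S_2011, 0.21 without mouse S_2014 and 0.0010 without both. Nkd2 had 13 to 58 reads per mouse, and its 95% interval spanned changes in both directions.

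Compared within each mouse, the ratio of Nkd1 to Nkd2 in CPM was 1.82 to 13.2 (median 3.59) among AAV-GFP mice and 0.983 to 2.0 (median 1.83) in AAV-Notum. Its 2 highest values, 13.2 and 10.8, were those of AAV-GFP mice S_2011 and S_2014, and only mouse S_2013 of AAV-GFP, at 1.82, lay inside the AAV-Notum range. The ratio differed between groups with a two-sided exact permutation p = 0.00866, and with p = 0.0238 without mice S_2011 and S_2014 (4 mice against 6). The ratio was one of 12 within-mouse quantities computed after the data were seen, and these p-values are not adjusted for that number. Its numerator, Nkd1, had already been seen to be lower, so the ratio is not further evidence. Its denominator, Nkd2, had only 13 and 14 reads in mice S_2011 and S_2014.

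Axin1 encodes the constitutive scaffold of the destruction complex and, unlike Axin2, is not known as a feedback target. Its gene (ENSMUSG00000024182) lies on chromosome 17 from 26138688 to 26195811. Axin1 had 38.5, 45.5, 53.4, 40.0, 50.5 and 58.3 CPM in AAV-GFP mice S_2011, S_2012, S_2013, S_2014, S_2021 and S_2022. It had 61.2, 64.5, 56.2, 60.8, 50.1 and 44.4 CPM in AAV-Notum mice S_2031, S_2032, S_2033, S_2034, S_2041 and S_2042. The lowest AAV-GFP values were those of the 3 mice with few T cell markers, and the lowest AAV-Notum value was that of mouse S_2042, the AAV-Notum mouse with the fewest. The mean was 47.7 ± 7.75 CPM (SD, n = 6) with GFP and 56.2 ± 7.65 CPM (SD, n = 6) with Notum. The log2 fold change was 0.24 (SE 0.12, 95% interval -0.03 to 0.50, adjusted p = 0.392 in edgeR; exact permutation p = 0.0909). Leaving out mouse S_2022 or mouse S_2042 gave 0.30 in either case (unadjusted p = 0.0281 and 0.0271 in edgeR, adjusted p = 0.174 and 0.207). It was 0.026 (SE 0.09) with the T cell marker level as a covariate and 0.11 (SE 0.12) without mice S_2011 and S_2014.

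The ratio of Axin1 to Axin2 within a mouse was 3.02 ± 0.438 (SD, n = 6) with GFP and 3.72 ± 0.496 (SD, n = 6) in AAV-Notum. Its two-sided exact permutation p was 0.0390, not adjusted over the 12 quantities. Without mice S_2011 and S_2014, whose ratios of 2.36 and 2.71 were the lowest, p was 0.143.

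Sp5 encodes a zinc finger transcription factor that is induced directly by beta-catenin in embryos and many cell lines. Its gene (ENSMUSG00000075304) lies on chromosome 2 from 70474923 to 70477729, next to the promoter stretch with 2 CTTTGA cores. In iWAT it was almost without reads. AAV-GFP mice S_2013, S_2021 and S_2022 had 1, 2 and 1 reads, and the other 3 AAV-GFP mice had 0. AAV-Notum mice S_2031, S_2032 and S_2041 had 1 read each, and the other 3 had 0. With 4 reads over AAV-GFP and 3 over AAV-Notum, no difference in Sp5 was detectable at this depth. A count of 0 allows up to 3 reads, which is 0.138 to 0.199 CPM depending on the mouse, by counting error only.

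**Figure D2:**
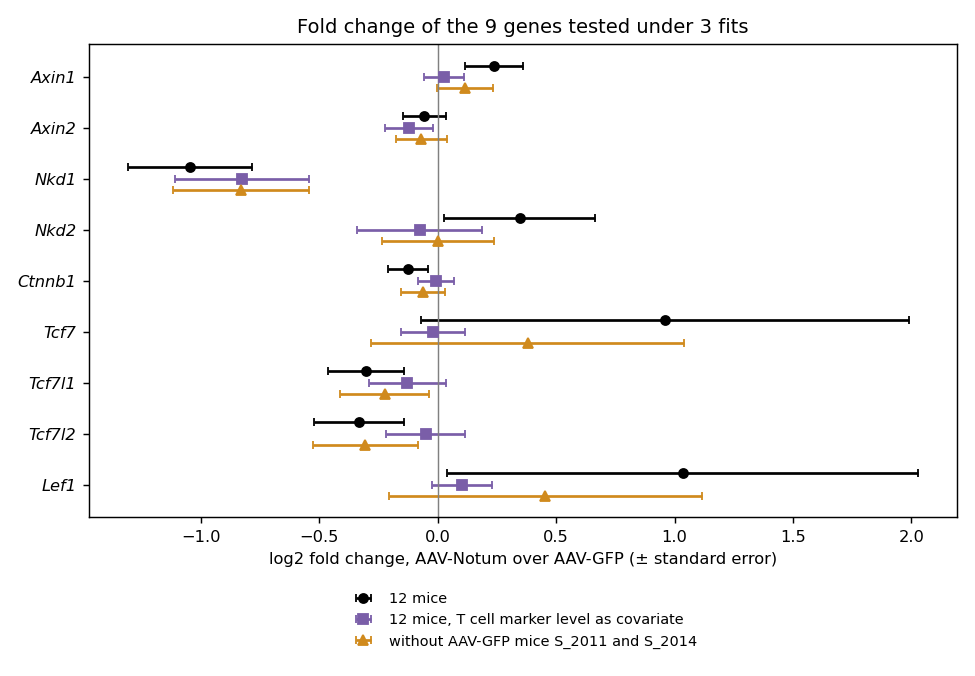
Log2 fold change ± standard error (horizontal axis) of the 9 genes tested, in all 12 mice (black), with the T cell marker level as a covariate (purple) and without AAV-GFP mice S_2011 and S_2014 (orange). Nkd1 is at -1.04, -0.83 and -0.83, while Tcf7 goes from 0.96 to -0.020 and 0.38.

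Ctnnb1 encodes beta-catenin, whose activity is set mainly by protein stability and not by transcript level. Its gene (ENSMUSG00000006932) lies on chromosome 9 from 120929216 to 120960507. Ctnnb1 had 356, 364, 310, 372, 309 and 301 CPM in AAV-GFP mice S_2011, S_2012, S_2013, S_2014, S_2021 and S_2022. It had 321, 294, 281, 289, 323 and 334 CPM in AAV-Notum mice S_2031, S_2032, S_2033, S_2034, S_2041 and S_2042. The 3 highest values were those of AAV-GFP mice S_2011, S_2012 and S_2014, which are also the mice with few T cell markers, and the highest AAV-Notum value was that of mouse S_2042. The mean was 335 ± 32.0 CPM (SD, n = 6) against 307 ± 21.4 CPM (SD, n = 6). Every AAV-Notum level was under the mean of AAV-GFP, yet the log2 fold change of -0.13 (SE 0.08, 95% interval -0.31 to 0.05) did not pass the test (adjusted p = 0.465 in edgeR; exact permutation p = 0.110). It was -0.0078 with the T cell marker level as a covariate. Ctnnb1 shares 759 exon bases with Ulk4 on the opposite strand, and the strand setting of the read count is not given in the sources used here. The deposited log2 table holds 78.4% of the Ctnnb1 reads of the raw table, and there its log2 fold change was -0.11.

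Tcf7 encodes TCF1, a factor of T cell development. Its gene (ENSMUSG00000000782) lies on the minus strand of chromosome 11 from 52252371 to 52283014. Tcf7 had 1.18, 7.503, 130.2, 0.596, 94.3 and 179 CPM in AAV-GFP mice S_2011, S_2012, S_2013, S_2014, S_2021 and S_2022. It had 202.5, 188, 110.0, 160.1, 100.5 and 40.7 CPM in AAV-Notum mice S_2031, S_2032, S_2033, S_2034, S_2041 and S_2042. AAV-GFP mice S_2011, S_2012 and S_2014 were below every other mouse, and the other 3 AAV-GFP mice lay within the AAV-Notum range. The mean was 68.8 ± 77.0 CPM (SD, n = 6) against 133.7 ± 61.2 CPM (SD, n = 6). This made a log2 fold change of 0.96 (SE 1.03, 95% interval -1.28 to 3.20, adjusted p = 0.616 in edgeR; exact permutation p = 0.0996).

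Lef1 encodes LEF1, which acts beside TCF1 in T cell precursors and is a target of the pathway in other tissues. Its gene (ENSMUSG00000027985) lies on chromosome 3 from 131110471 to 131224356. Lef1 had 0.448, 1.97, 47.9, 0.179, 33.6 and 52.2 CPM in AAV-GFP mice S_2011, S_2012, S_2013, S_2014, S_2021 and S_2022. It had 66.2, 67.0, 35.3, 60.7, 32.8 and 17.1 CPM in AAV-Notum mice S_2031, S_2032, S_2033, S_2034, S_2041 and S_2042. The same 3 AAV-GFP mice as for Tcf7 were lowest, with 8, 33 and 3 reads. The mean was 22.7 ± 24.7 CPM (SD, n = 6) against 46.5 ± 20.9 CPM (SD, n = 6). The log2 fold change was 1.03 (SE 0.99, 95% interval -1.13 to 3.20, adjusted p = 0.575 in edgeR; exact permutation p = 0.0996).

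The size of both differences depended on the tool and on the mice with few lymphoid reads. In limma-voom, which works on log values, the log2 fold change was 2.90 for Tcf7 (unadjusted p = 0.0460) and 3.004 for Lef1 (unadjusted p = 0.0223), with adjusted p of 0.277 and 0.270. Leaving out mouse S_2022 alone raised the Tcf7 value to 1.52 in edgeR. Without mice S_2011 and S_2014 edgeR gave 0.38 for Tcf7 and 0.45 for Lef1, and without mice S_2011, S_2012 and S_2014 it gave -0.0075 (SE 0.42) and 0.062. Those 3 mice were the AAV-GFP mice lowest in Tcf7 and in Lef1. With the T cell marker level as a covariate the log2 fold changes were -0.020 (SE 0.13) for Tcf7 and 0.10 (SE 0.13) for Lef1. Both Tcf7 values below 0 lay within 1 SE of 0, and since Tcf7 and Lef1 moved with the T cell markers mouse by mouse, no direction is read from them.

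Tcf7 and Lef1 moved with the T cell markers mouse by mouse. The 18 markers, which include Cd3e, Cd4, Cd8a and Lck and neither Tcf7 nor Lef1, had log2 fold changes of 0.79 to 1.13 (median 0.97), and none had an unadjusted p under 0.05 in edgeR (smallest adjusted p = 0.499). The exact permutation p of their summed level was 0.0996, and 0.405 without mice S_2011 and S_2014. The ratio of Tcf7 to this sum was 0.128 to 0.166 in 10 mice and 0.0667 and 0.0575 in mice S_2011 and S_2014. The ratio of Lef1 to the sum was 0.0360 to 0.0540 in the same 10 mice and 0.0254 and 0.0172 in mice S_2011 and S_2014. Between groups, the exact permutation p was 0.236 for the Tcf7 ratio and 0.0541 for the Lef1 ratio, and 0.981 and 0.205 without mice S_2011 and S_2014. In these 2 mice the markers were present at 315 and 174 reads in all, with 1 of 18 at 0 and Cd3e at 11 reads in each. The ratio of Tcf7 to Lef1 stayed between 2.38 and 3.82 in all 12 mice (exact permutation p = 0.281), although the level of Tcf7 itself ran from 0.596 to 202.5 CPM. The log2 fold changes of the 8 B cell markers had a median of 1.01, and none had an unadjusted p under 0.05.

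**Figure D3:**
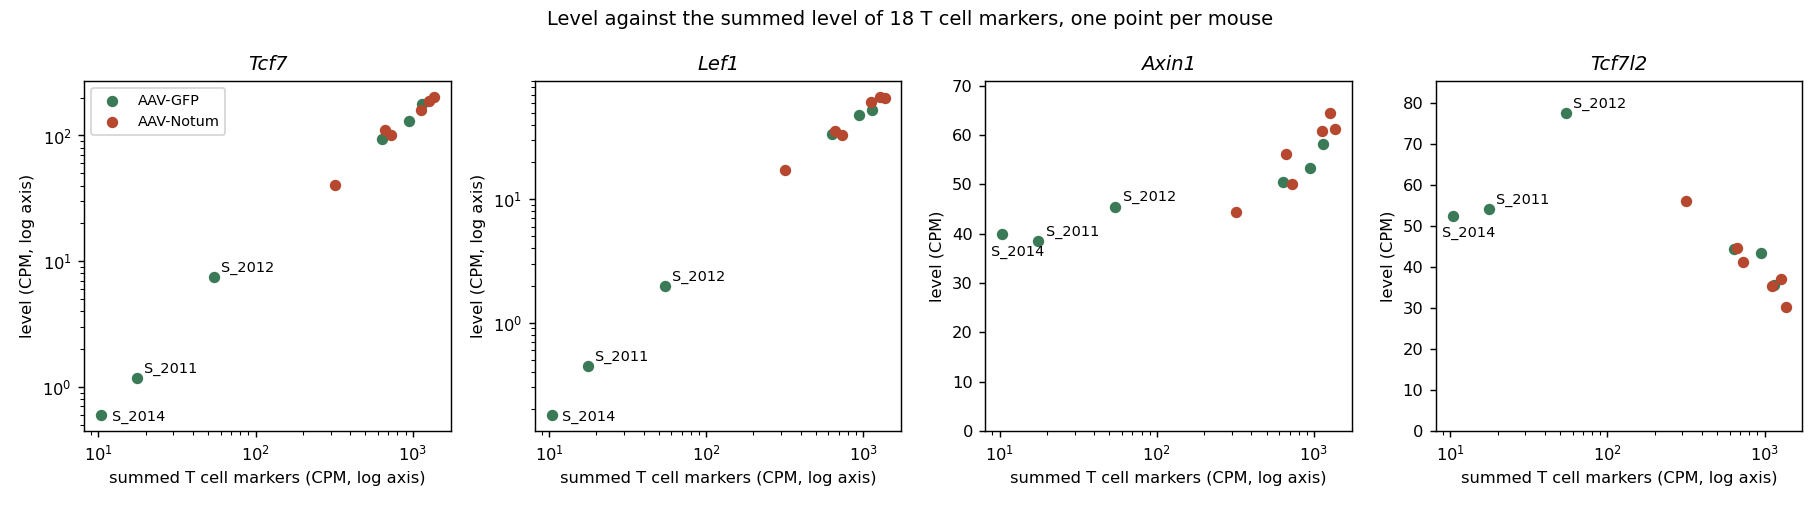
Level of Tcf7, Lef1, Axin1 and Tcf7l2 (vertical axes, CPM, log axes for Tcf7 and Lef1) against the summed CPM of 18 T cell markers (horizontal log axis), with 1 point per mouse and the 3 AAV-GFP mice with the fewest markers labelled. Tcf7 and Lef1 are higher in mice with more of the markers in both groups, with Tcf7 at 0.128 to 0.166 of the sum in 10 of 12 mice.

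Tcf7l1 encodes TCF3, a factor that mostly represses targets where beta-catenin is absent. Its gene (ENSMUSG00000055799) lies on the minus strand of chromosome 6 from 72626378 to 72789254. Tcf7l1 had 42.1, 37.5, 27.4, 37.8, 45.0 and 26.1 CPM in AAV-GFP mice S_2011, S_2012, S_2013, S_2014, S_2021 and S_2022. It had 23.5, 23.6, 35.9, 31.5, 26.2 and 34.4 CPM in AAV-Notum mice S_2031, S_2032, S_2033, S_2034, S_2041 and S_2042. AAV-GFP mice S_2011, S_2012, S_2014 and S_2021 were above every AAV-Notum mouse, and the other 2 were inside the AAV-Notum range. The mean was 36.0 ± 7.70 CPM (SD, n = 6) against 29.2 ± 5.48 CPM (SD, n = 6). This made a log2 fold change of -0.30 (SE 0.16, 95% interval -0.66 to 0.05, adjusted p = 0.400 in edgeR; exact permutation p = 0.119). Leaving out mouse S_2013, S_2022 or S_2033 gave -0.37, -0.38 and -0.37, each with an unadjusted p of 0.0302 to 0.0484 in edgeR. It was -0.13 (SE 0.16) with the T cell marker level as a covariate.

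Tcf7l2 encodes TCF4, the TCF factor known for its role in adipocytes and for its tie to type 2 diabetes. Its gene (ENSMUSG00000024985) lies on chromosome 19 from 55741820 to 55933654 and has 22 annotated transcripts, which the reads per gene do not separate. Tcf7l2 had 54.1, 77.5, 43.3, 52.5, 44.5 and 35.7 CPM in AAV-GFP mice S_2011, S_2012, S_2013, S_2014, S_2021 and S_2022. It had 30.2, 37.0, 44.6, 35.3, 41.2 and 56.0 CPM in AAV-Notum mice S_2031, S_2032, S_2033, S_2034, S_2041 and S_2042. The groups overlapped, with mouse S_2012 the highest of AAV-GFP and mouse S_2042 the highest of AAV-Notum. The mean was 51.3 ± 14.5 CPM (SD, n = 6) against 40.7 ± 8.96 CPM (SD, n = 6). The log2 fold change was -0.33 (SE 0.19, 95% interval -0.74 to 0.08, adjusted p = 0.418 in edgeR; exact permutation p = 0.156). Leaving out mouse S_2042 or mouse S_2022 gave -0.45 and -0.42 (unadjusted p = 0.0329 and 0.0419 in edgeR). It was -0.18 (SE 0.16) without mouse S_2012 alone, -0.050 (SE 0.17) with the T cell marker level as a covariate and -0.023 without mice S_2011, S_2012 and S_2014. The 5 endothelial markers summed to 887 CPM in mouse S_2012 and 687 CPM in mouse S_2042, the highest of each group, and their part in the Tcf7l2 level was not tested.

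The ratio of Tcf7l2 to Tcf7l1 was 1.45 ± 0.360 (SD, n = 6) with GFP and 1.40 ± 0.213 (SD, n = 6) in AAV-Notum, with an exact permutation p of 0.905. Set together per kilobase of exon, the 4 factors had a different make-up in different mice. Tcf7 held 1.43% to 80.4% of their sum among AAV-GFP mice and 47.6% to 82.0% in AAV-Notum. In mice S_2011 and S_2014 Tcf7l1 held 61.7% and 60.8% and Tcf7l2 held 35.4% and 37.7%. The summed level of the 4 factors was 15.9 to 84.9 CPM per kilobase among AAV-GFP mice and 32.6 to 94.1 in AAV-Notum (exact permutation p = 0.108, and 0.505 without mice S_2011 and S_2014). For the share of Tcf7 the exact permutation p was 0.0952, and without mice S_2011 and S_2014 it was 0.433.

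**Figure D4:**
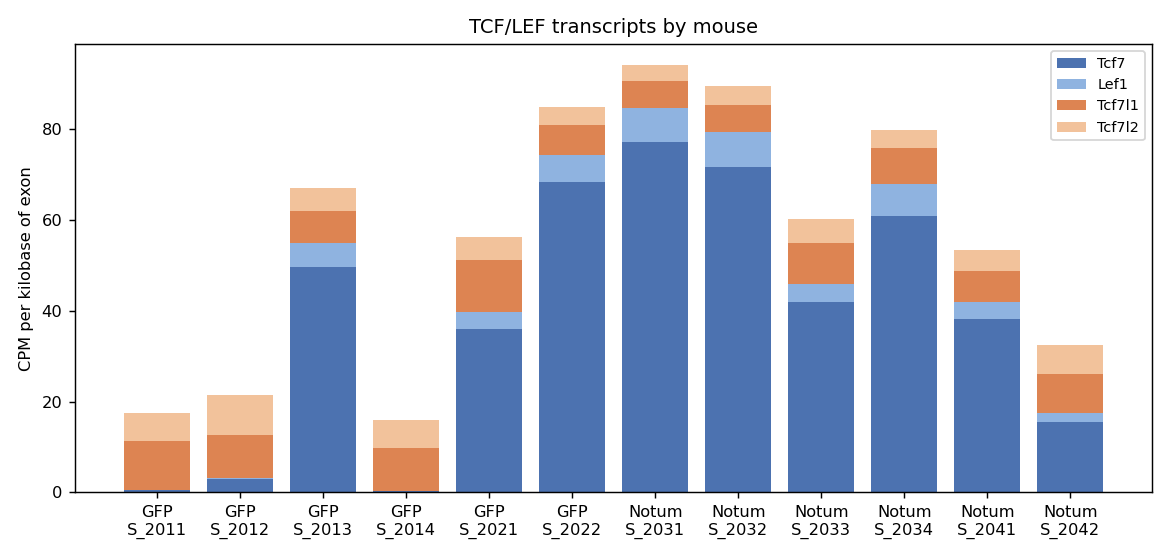
CPM per kilobase of exon (vertical axis) of Tcf7, Lef1, Tcf7l1 and Tcf7l2, stacked for each of the 12 mice. In AAV-GFP mice S_2011, S_2012 and S_2014 most of the bar is Tcf7l1 and Tcf7l2, and in 8 of the other 9 mice Tcf7 takes 63.8% or more of it.

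The other genes of the pathway were described from lists of known components. Of the 8 genes that act at Dishevelled or through tankyrase, 5 had a higher and 3 a lower mean in AAV-Notum, their log2 fold changes centred on 0.017, and none passed the adjusted threshold. Dvl1, the Dishevelled protein gene with the smallest p, had 68.2 to 88.1 CPM among AAV-GFP mice and 63.6 to 71.5 CPM in AAV-Notum. Its log2 fold change was -0.18 (SE 0.07, unadjusted p = 0.0269, adjusted p = 0.297 in edgeR). Its 3 highest values were those of mice S_2011, S_2012 and S_2014, and the log2 fold change was -0.15 (unadjusted p = 0.0966) without S_2011 and S_2014 and -0.091 (unadjusted p = 0.213) with the T cell marker level as a covariate. Dvl2 and Dvl3 had log2 fold changes of 0.084 and 0.014. Tnks, a tankyrase that marks Axin for destruction, had -0.11 (SE 0.07, adjusted p = 0.480 in edgeR).

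Of the 12 genes of the destruction complex, among them Apc, Gsk3a, Gsk3b and Csnk1a1, 3 were higher and 9 lower, none with an unadjusted p under 0.05, and the median log2 fold change was -0.053. Ppp2r1a, a phosphatase subunit, had -0.15 (SE 0.11, adjusted p = 0.492 in edgeR), and 0.045 with the T cell marker level as a covariate. Gsk3a, a kinase that phosphorylates beta-catenin, had 0.063 (SE 0.05, adjusted p = 0.523). Apc had 97.0 ± 6.21 CPM (SD, n = 6) with GFP and 95.5 ± 6.21 CPM (SD, n = 6) with Notum.

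Of 25 nuclear partners and corepressors of beta-catenin and TCF, 16 were higher and 9 lower, with log2 fold changes centred on 0.011 and no adjusted p under 0.289. Tle1, a Groucho-type corepressor of TCF, had 25.6 to 40.4 CPM among AAV-GFP mice and 22.3 to 34.3 CPM in AAV-Notum. Its log2 fold change was -0.34 (SE 0.13, unadjusted p = 0.0237 in edgeR). Ctnnd1, which encodes the p120 relative of beta-catenin, had -0.33 (SE 0.14, unadjusted p = 0.0361 in edgeR). No gene of this list was higher at that threshold.

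Of 30 other known targets of beta-catenin, 22 had enough reads to be tested, 11 of them higher and 11 lower, with a median log2 fold change of -0.011. The study used another list of Wnt targets on these mice. Of the targets that it reported as lower by RNA-seq, only Wisp2 is among the 30. The even split is thus that of the present list only. Wisp2, a secreted matricellular protein made by adipocyte precursors, had 3.87 to 8.75 CPM among AAV-GFP mice and 2.34 to 5.45 CPM in AAV-Notum. Its log2 fold change was -0.79 (SE 0.25, unadjusted p = 0.00867, adjusted p = 0.214 in edgeR), and 5 of 6 AAV-Notum levels were under the lowest AAV-GFP level. Wisp2 is one of the genes that the study picked on these mice, so its direction is not independent evidence. Ephb3, an ephrin receptor gene known as an intestinal target, had -0.37 (SE 0.16, unadjusted p = 0.0331, adjusted p = 0.314 in edgeR). Myc and Ccnd1, which also respond to many other signals, had 0.42 and 0.24 and did not pass the test. Lgr5, Dkk1, Cdx1, Cdx2, T, Fgf20, Nkx2-2 and Zcchc12 were, like Sp5, too low to test, with at most 16 reads in any mouse. In these 4 lists together with Nkd1, each gene with an unadjusted p under 0.05 in edgeR was lower in AAV-Notum, as were 9.54% of all genes against 4.64% higher. With the T cell marker level as a covariate, Wisp2 had a log2 fold change of -0.75 (SE 0.29). It then kept an unadjusted p under 0.05 in edgeR, which Dvl1, Tle1, Ctnnd1 and Ephb3 did not (log2 fold changes of -0.091, -0.22, -0.14 and -0.17). Without mice S_2011 and S_2014 the same was so, with -0.87 (SE 0.27) for Wisp2. Tle1 then had -0.31 (SE 0.15), against -0.34 (SE 0.13) in all mice, and Ctnnd1 and Ephb3 had -0.24 and -0.20.

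**Figure D5:**
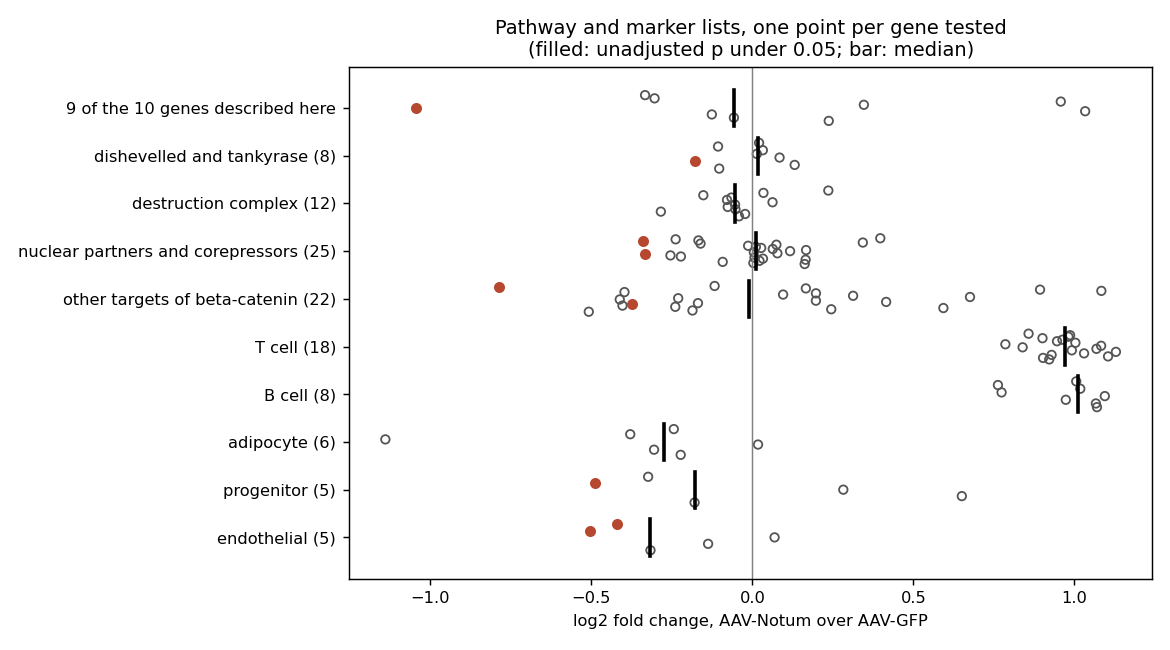
Log2 fold change (horizontal axis) of each tested gene of the 10 described here, of 4 pathway lists and of 5 marker lists, with 1 point per gene, filled at an unadjusted p under 0.05, and the median of each list as a bar. The 4 pathway lists have medians between -0.053 and 0.017, whereas the 18 T cell and 8 B cell markers centre on 0.97 and 1.01.

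For each of the 9 genes the 3 tested genes with the most similar log2 CPM were named, by Pearson's r over the 12 mice, as a description only. All points share the same libraries, and mice S_2011, S_2012 and S_2014 stand apart in lymphoid markers. The value in brackets is r over the 10 mice without S_2011 and S_2014. Mouse S_2012, low in T cell markers, is still among these 10, so r in brackets can still lean on it. Nkd1 was most like Prelp, which encodes a matrix proteoglycan, at 0.96 [0.93], Pacsin2 at 0.95 [0.95] and Ppfia3 at 0.95 [0.91]. Axin2 had no close match, with Bub3 at 0.83 [0.82], Commd7 at 0.82 [0.84] and Ccdc102a at 0.82 [0.81]. Lef1 was most like Cd3g, a T cell receptor component, at 0.9989 [0.9959], followed by Nsg2 and Bcl11b. Tcf7 was most like Nsg2 at 0.9981 [0.9928], then Bcl11b and Pacsin1. Tcf7l2 was most like Tek, an endothelial receptor, at 0.98 [0.98], then Ly6c1 at 0.97 [0.96] and Mettl7a1 at 0.97 [0.96]. Tek itself had a log2 fold change of -0.50 (SE 0.21, adjusted p = 0.317 in edgeR).

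Tcf7l1 was most like Chn1os3 at 0.95 [0.95], Samd4 at 0.95 [0.93] and Tnfrsf1a at 0.94 [0.92]. Axin1 was most like Atg16l2 at 0.99 [0.98], Zfp710 and Plagl2, and Ctnnb1 was most like Hbp1 at 0.95 [0.94], Ndfip1 and Gm43272. The genes most like Nkd2 were Gm46224 at 0.92 [0.56], Olfr1372-ps1 at 0.92 [0.74] and Ighg2b at 0.92 [0.58], whose likeness rested largely on mice S_2011 and S_2014.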

How the data were processed

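RNA-seq libraries were made from iWAT total RNA with TruSeq kits, 1 per mouse, and sequenced as single-end reads. The authors mapped reads to mm10 with STAR 2.3.1 and tested with DESeq2. The program, annotation and strand setting of the read count are not given in the sources used here. The authors deposited raw counts per gene, used here, and a table of log2 values. The deposited log2 values are log2 of reads divided by a size factor, plus 1, and undoing this gave whole reads (within 0.01) for 100% of values. That table rests on another count, with 78.4% of the raw reads for Ctnnb1 and 93.6% to 114% for the other 9 genes.

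The counts were tested with edgeR 4.0.16 in R 4.3.3 (filterByExpr with minimum count 10 and minimum total 15, TMM, glmQLFit, glmQLFTest, two-sided), with Benjamini-Hochberg adjustment over 15585 genes. CPM use the TMM library size. A prior count of 2 was added for log2 CPM. Exact permutation tests, two-sided on mean log2 CPM or log2 ratios (shares untransformed), used all 924 assignments of 12 mice. Alternatives used DESeq2 1.42.0, limma 3.58.1, other size factors and filters, a robust fit, covariates and left-out mice. The edgeR fit was also run on simulated counts, as a check of the code and not of the results. Positions and exon lengths are those of GENCODE vM21 (GRCm38), and promoter windows are from RefSeq (GRCm38.p6). Figures were drawn with matplotlib 3.10.9.

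The members and lists were chosen with earlier results of these data known. The genes named are all 10 members, the 2 genes of smallest p in each pathway list, the defining markers, and the 3 genes most like each member. Dvl2, Dvl3, Apc, Myc, Ccnd1 and the untested targets were named after their values were seen. Total counts of 14711113 to 21618860 per mouse leave genes under 100 reads, such as Nkd2, with more counting error. Mice are named by their numbers in the labels.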

Additional observations from a re-analysis of the deposited data

Results flagged for a closer look

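Among the 18 sets of 6 mice examined (9 genes in 2 groups), 1 had a mouse far from the others. Axin2 had 18.6 CPM in AAV-Notum mouse S_2034, while the other 5 AAV-Notum mice had 13.7 to 15.04 CPM, and the gap to the nearest mouse was 0.727 of the whole range of the group. Chance alone marks about 1 in 20 such sets. Without this mouse the log2 fold change of Axin2 was -0.12 in edgeR's quasi-likelihood test.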

How the results depend on the processing

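No gene of the 9 had an adjusted p under 0.05 in edgeR under any alternative, and 1 gene, Nkd1, had one in DESeq2. Nkd1 was lower in AAV-Notum in 25 of 25 alternatives, with log2 fold changes of -1.16 to -0.83 and unadjusted p of 1.48e-04 to 0.0174. With each mouse left out, 1 to 3 of the 9 genes were lower and 0 to 1 higher at an unadjusted p under 0.05, beside 6.67% to 13.6% of all genes lower and 2.88% to 10.3% higher. At the adjusted threshold, 1 to 146 of all genes were then called lower and 0 to 12 higher. The counts of 146 and 12 came without AAV-GFP mouse S_2022. By unadjusted p, limma-voom had 2 of the 9 genes higher (9.38% of all genes), against 1 with limma on the log2 table (7.38%). At the adjusted threshold over all genes, DESeq2 called 357 lower and 79 higher, RLE size factors 13 and 1, at least 10 counts in every mouse 14 and 1, and T cell and adipocyte markers as covariates 22 and 2. The number lower was 5 with no filter beyond 1 count, 4 with T cell markers as a covariate, 4 with limma on the log2 table, 1 without mice S_2011 and S_2014, and 0 without mice S_2011, S_2012 and S_2014. The fitted value fell just below 0 for Nkd2 and Tcf7, from which no direction is read. Their log2 fold changes were -0.077 and -0.020 with T cell markers as a covariate, -0.036 and -0.0075 without mice S_2011, S_2012 and S_2014, and -0.11 and -0.058 with T cell and adipocyte markers as covariates. The last 2 settings were chosen after seeing the data, and the cause of these changes was not tested. Lef1 has no value for at least 10 counts in every mouse. No paired analysis was possible because the groups share no mouse numbers.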
